A study of Bos taurus with 94 samples.

Results

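The 60 genes described here are those of the epididymis head and body in cattle, chosen among 24616 gene identifiers in 94 RNA sequencing libraries. Levels are FPKM, a count of fragments divided by the length of the transcript and by the number of mapped fragments, and were analysed as log2(FPKM + 1). For each gene the highest level in 91 other libraries was subtracted from the mean level of caput_epididymis (the head) and corpos_epididymis (the body), and the 60 largest differences were taken. The library labelled Follicle was left out of that maximum, and 1 gene that leads the head library, ENSBTAG00000047297, was left out of the list. The members were chosen by these measured levels of head, body and the 91 others, so the contrast of head and body with the other tissues is a description and was not tested. The choice was made with earlier results of these data known.

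Every library is total RNA from snap-frozen tissue of Hereford cattle with the age label adult. The labels name no animal and no treatment, and head, body, tail_epididymis and vas_deferens are 1 library each. The library labelled Follicle is the first of 3 libraries with that tissue name. The files do not pair the identifiers with gene names, and 0 identifiers are in the gene table used, so no gene is named by symbol, no function is given for any of the 60 genes, and the tissue labels could not be checked against marker genes. With 1 library per segment no difference between segments has a replicate check. Fewer cells of a type and less RNA per cell cannot be told apart in these bulk tissues.

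The epididymis is the long coiled duct that carries sperm from the testis to the vas deferens. Sperm leave the testis immature and acquire motility and the ability to fertilise as they pass along the head and body, and they are stored in the tail. The lining epithelium secretes a different set of proteins into the lumen in each segment, and such genes are known for being active over a short stretch of the duct and nearly nowhere else. An ovarian follicle is the fluid-filled structure that holds the egg cell and its supporting cells, and shares no duct epithelium with the epididymis.

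The library labelled Follicle stood apart from the other libraries with that name. Over 18031 genes at 1 FPKM or more in at least 3 libraries, its closest libraries were body (Spearman's rho 0.909) and head (0.882). Follicle replicates 2 and 3 were 29th and 57th in that order (0.769 and 0.745), and had a rho of 0.933 with each other. The sample titles of the library labelled Follicle, body and head are consecutive, and the labels do not say what the title numbers stand for. The same unbroken run of titles holds the libraries labelled Chorid_plexus, prostrate, vas_deferens and Mammary_gland_fat and that of the normal outer eye layer. After body and head, the library closest to the one labelled Follicle was Mammary_gland_fat (0.832). The tail library also stood apart from its neighbours on the duct. It was closest to the library labelled Gall_Bladder (0.931), with body 61st (0.780) and head 75th (0.759). The library labelled Diaphragm (0.931) and follicle replicates 2 and 3 (0.928 and 0.925) were nearly as close to the tail. The sample titles of the tail and of follicle replicates 2 and 3 are also consecutive. The correlations run over genes of the same libraries and are descriptions.

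The 60 genes held 9.90% of all FPKM in the head, 6.30% in the body and 3.36% in the library labelled Follicle. In the 91 others they held 0.014% to 0.303%, with a median of 0.0783%. The tail was at 0.0933%, 30th of the 91. The vas deferens was at 0.134% and the library labelled prostrate at 0.133%, 9th and 10th of the 91. By the number of the 60 genes at 1 FPKM or more, the library labelled prostrate (32) and the vas deferens (30) were first and second of the 91. The median of the 91 was 17, and the tail had 16. Over all 24616 genes, the library labelled prostrate held 10947 at that level, the vas deferens 11584 and the tail 12724. The first gene by the rule, ENSBTAG00000030802, was at 968 FPKM in the head, 2114 in the body and 839.9 in the library labelled Follicle. Its highest level elsewhere was 9.54 FPKM in the library labelled prostrate, it was at 7.05 in the vas deferens, and it was listed at 0 in 84 of the 91 others, the tail among them. That is a difference of 7.09 on the log2(FPKM + 1) scale between the mean of both segments and the next library.

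**Figure D1:**
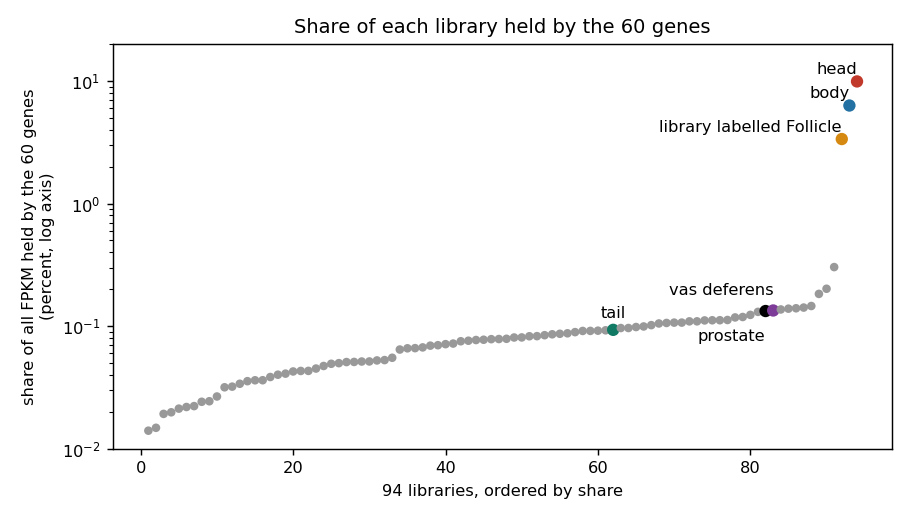
Share of all FPKM held by the 60 genes, in percent on a log axis, in each of the 94 libraries in order; each point is a library. Head (9.90%), body (6.30%) and the library labelled Follicle (3.36%) lie above all 91 others, whose highest is 0.303%.

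Differences by the rule ran from 7.09 down to 1.62, with a median of 2.82. The gene just inside the limit had a difference of 1.62 and the gene just outside 1.57, so the list has no natural edge at 60. All 60 genes reached 1 FPKM in head or body and 52 reached it in both. Their mean FPKM over head and body ran from 2.77 to 13646, with 46 genes at 100 or more and 14 at 1000 or more. The head library held these levels in few genes: the leading gene gave 32.1% of the summed FPKM of the 60 and the first 5 gave 69.9%. In the body the leading gene gave 17.2% and the first 5 gave 63.5%. Of the 5 most abundant members of each segment, 1 was shared.

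That shared gene, ENSBTAG00000021955, was at 15492.5 FPKM in the head, 7696 in the body and 8609 in the library labelled Follicle. It was at 1 FPKM or more in all 91 other libraries, with its highest level of 1445 in the lung, so it marks the segments by quantity and not by presence. The most abundant of the 60 in the head, ENSBTAG00000033377, was at 26060.5 FPKM there, 1232 in the body and 2396 in the library labelled Follicle. The most abundant in the body, ENSBTAG00000048288, was at 8401 FPKM there, 13.3 in the head and 283 in the library labelled Follicle. The order of abundance thus differed between the segments, and across the 60 genes the levels in head and body had a Pearson correlation of 0.04. That correlation is a description over 60 genes of the same pair of libraries. The rule, which selects on the mean of both levels, bears on it.

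Head and body were then compared gene by gene, on the difference of log2(FPKM + 1). The rule used their mean and not their difference, but a gene could pass it through 1 segment alone. The head was above every other library, the one labelled Follicle left out, in 52 of the 60 genes, and the body in 54. The head was listed at 0 for 4 of the 60 and the body for 1. The split between the segments is therefore not free of the rule, and the shares below are descriptions. A difference of at least 1 was counted as higher in a segment. Among the 60 genes, 25 (41.7%) were higher in the head, beside 13.2% of the 13854 genes at 1 FPKM or more in either segment. In the body 16 (26.7%) were higher, beside 11.6% of all. The other 19 (31.7%) lay within 1, beside 75.2% of all. A difference of at least 2 was reached by 18 genes toward the head and 13 toward the body, beside 2.88% and 2.16% of all genes. A difference of at least 4 was reached by 11 genes toward the head and 9 toward the body, beside 0.383% and 0.289% of all genes. Of all 924 genes with a mean of 100 FPKM or more over both segments, 726 lay within 1 (78.6%), and 10 of the 46 members at that level did.

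The median difference was 0.64 toward the head, beside 0.00 over all genes, and the quartiles were -1.19 and 2.69. The absolute difference had a median of 2.27, beside 0.54 over all genes. Large differences in both directions thus lay behind a small median.

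The 2 genes furthest toward the head were ENSBTAG00000021987 and ENSBTAG00000048009. ENSBTAG00000021987 was at 6053 FPKM in the head, 9.72 in the body and 22.3 in the library labelled Follicle, a difference of 9.14. It was listed at 0 in the tail and the vas deferens. ENSBTAG00000048009 was at 947 FPKM in the head, 0.712 in the body and 1.01 in the library labelled Follicle, a difference of 9.11, and was also listed at 0 in the tail and the vas deferens. The body, next along the duct, thus held both at under 10 FPKM. Among the 25 genes higher in the head, 8 were under 10 FPKM in the body and 1 was listed at 0 there.

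The 2 genes furthest toward the body were ENSBTAG00000009626 and ENSBTAG00000011164. ENSBTAG00000009626 was listed at 0 in the head, was at 5283 FPKM in the body and at 109 in the library labelled Follicle, and was at 9.33 in the vas deferens and listed at 0 in the tail. Its difference of -12.37 depends on the pseudocount of 1, since a value of 0 allows no fold. ENSBTAG00000011164 was at 2.42 FPKM in the head, 2498 in the body and 2561 in the library labelled Follicle, a difference of -9.51. It was listed at 0 in the tail and the vas deferens. Among the 16 genes higher in the body, 8 were under 10 FPKM in the head and 4 were listed at 0 there. A gene at over 1000 FPKM in one segment could therefore be at or near 0 in the other.

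**Figure D2:**
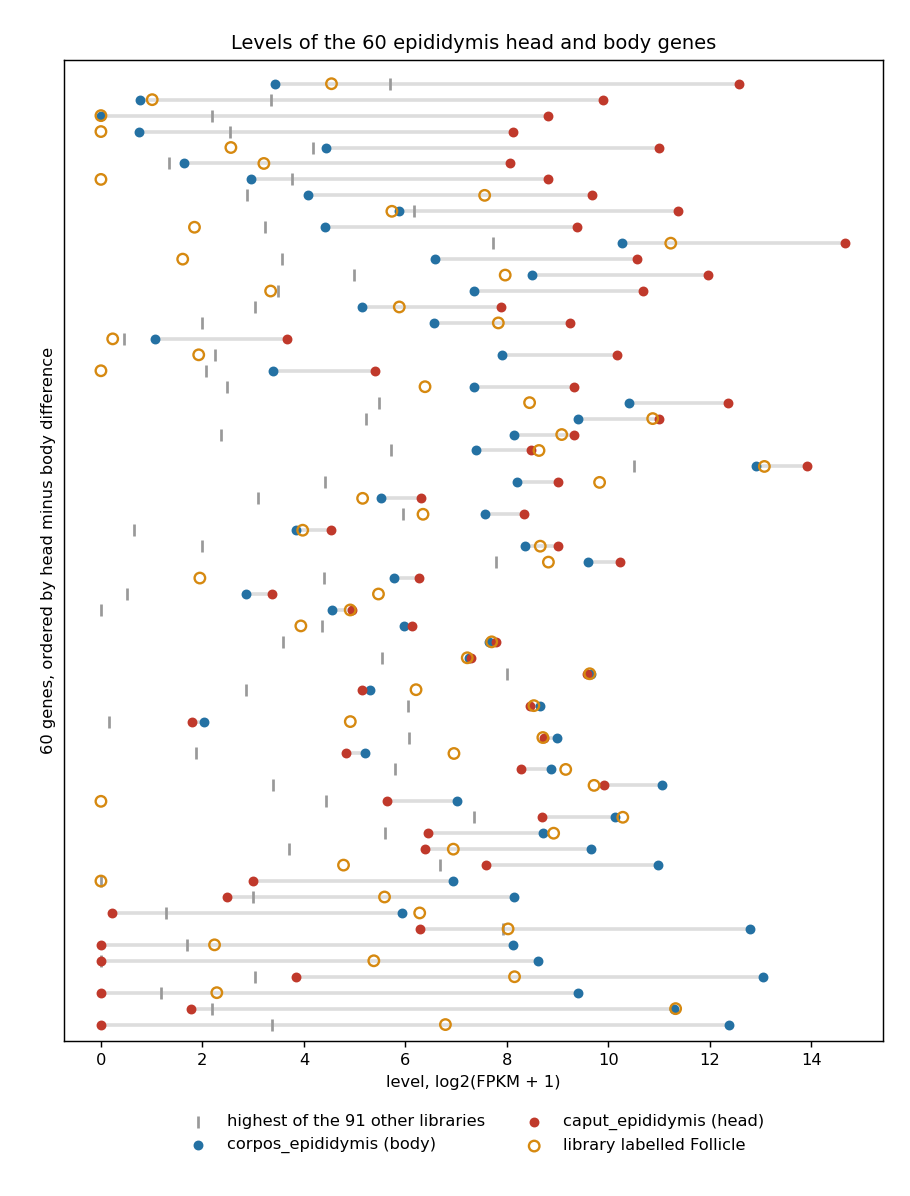
Levels of the 60 genes as log2(FPKM + 1), 1 row per gene in order of the head minus body difference (largest toward the head at the top); red points are the head, blue the body, open orange circles the library labelled Follicle, and grey ticks the highest of the 91 other libraries. Of the 60 rows, 25 have the head at least 1 above the body, 16 the reverse, and 19 lie within 1.

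The 60 genes differed in how far they were spread over other tissues, and the line drawn here, at 1 FPKM or more in at least 60 of the 91 others, was chosen after the values were seen. By that line 14 genes were broad and 46 restricted, with 1 restricted gene just under it at 59 libraries. Of the restricted genes, 7 reached 1 FPKM in none of the 91, and 3 of these had a value of 0 in every one. Among all 13854 genes 77.6% were broad. Of the broad members, 9 of 14 lay within 1 between head and body, 2 were higher in the head and 3 in the body. Of the restricted members 10 of 46 lay within 1, 23 were higher in the head and 13 in the body. The median absolute head to body difference was 0.61 in the broad and 3.35 in the restricted members, beside 0.47 and 0.98 for broad and other genes of the whole table. The shares within 1 were not counted for broad and other genes of the whole table, so nothing is read from the counts within 1. Both medians were above those of the whole table, that of the restricted members by more. The rule bears on this, since a gene with a high level elsewhere passes less easily when 1 segment is near 0.

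**Figure D3:**
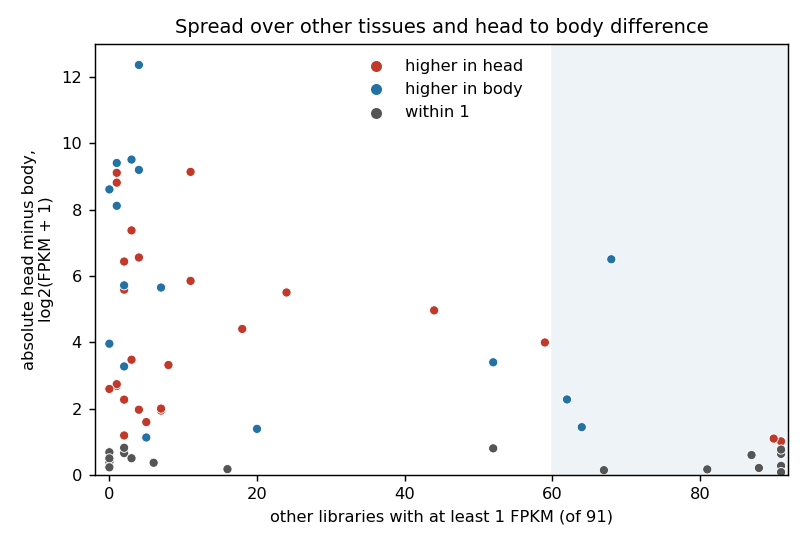
Absolute head minus body difference, on the log2(FPKM + 1) scale, against the number of the 91 other libraries with 1 FPKM or more; each point is 1 of the 60 genes, red if higher in the head, blue if higher in the body and grey within 1, and the shaded area holds the 14 broad genes. Median absolute differences are 0.61 in the shaded area and 3.35 outside it.

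By their labels, the tail and the vas deferens are the next stretches of the duct. Both were in the maximum of the rule, so their low levels are a description. As given above, the tail library was closer to the one labelled Gall_Bladder than to head or body. Its low levels are therefore not read as a change along the duct. The tail listed 41 of the 60 genes at 0, beside 10.2% of all 13854 genes, and all 41 were restricted. The 14 broad genes were at 0.953 to 144 FPKM in the tail, with a median of 34, beside medians of 335 in the head and 444 in the body. No restricted gene passed 6.98 FPKM there. The vas deferens listed 27 of the 60 at 0, beside 13.2% of all genes, and had 30 at 1 FPKM or more and 12 at 10 or more. Without the tail in the maximum, the same 60 genes were chosen.

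The highest of the 91 other libraries was most often the one labelled prostrate (11 genes), the vas deferens (10) or the bull testis (6). The library labelled prostrate was highest for 10 of the 25 genes higher in the head and 1 of the 16 higher in the body. How often each library is the highest over all genes was not counted, so nothing is read from these counts. The levels of the restricted genes in the library labelled prostrate were set beside the head. All 13 restricted genes at 800 FPKM or more in the head were above 0 in it, at 0.326% to 1.47% of the head level with a median of 0.813%. Of the 12 restricted genes from 100 to under 800 FPKM in the head, 5 were listed at 0 in it, although the head had 234 to 641 FPKM of them. The other 7 were at 0.0807% to 1.95% of the head level. Of 21 restricted genes under 100 FPKM in the head, 17 were listed at 0 in it. The ratio to the head was thus similar among the most abundant genes and did not hold over all 46. These limits of 800 and 100 FPKM were chosen after the values were seen.

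Of the restricted genes, 11 were higher in the head by at least 4. The library labelled prostrate held 8 of these 11 at between 0.6% and 1% of the head level. The rest of the 11 were at 0, 0.124% and 0.413%. Of all 46 restricted genes, 13 lay in that window. The window was set after the values were seen, and its share over all genes was not counted, so nothing is read from the 8. For ENSBTAG00000033377 the values were 212 FPKM against 26060.5 (0.813%), and for ENSBTAG00000021987 they were 50.6 against 6053 (0.836%). Of the 8 restricted genes higher in the body by at least 4, the highest reached 0.29 FPKM in it. Its Pearson correlation with the head over the 46 genes was 0.78, and with the body 0.12. The next highest with the head was 0.53, in the mammary gland fat, and the median over all libraries with any level of these genes was 0.12. The correlations describe 46 genes of the same 2 libraries. Without the library labelled prostrate in the maximum, 59 of the 60 genes were chosen again. The titles of the libraries labelled prostrate and Mammary_gland_fat lie in one unbroken run with the title of the head. A cause of these levels was not tested.

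**Figure D4:**
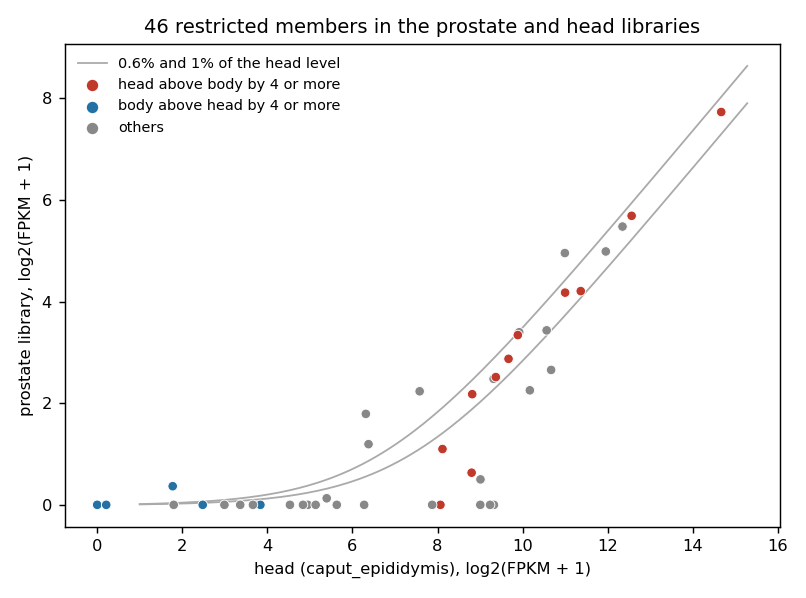
Levels of the 46 restricted genes as log2(FPKM + 1) in the library labelled prostrate (vertical) and the head (horizontal); each point is a gene, red if higher in the head by at least 4, blue if higher in the body by at least 4, and grey lines mark 0.6% and 1% of the head level. Of the 11 red points 8 lie between the lines, which were set after the values were seen, and the blue points lie at or near 0.

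The library labelled Follicle was left out of the maximum, with its likeness to head and body already known. Its own levels were not used in the differences, but leaving it out bears on the list: counted among the others, it left 31 of the 60 genes chosen. Its levels are therefore a description. It was above every one of the 91 other libraries in 42 of the 60 genes, beside 4.06% of all 13854 genes; the rule made the 91 low for these genes, so nothing is read from that share. It was above both head and body, and highest of all 94 libraries, in 11 genes; 29.0% of all 13854 genes were above both. The head was highest of all in 34 genes and the body in 15. The library labelled Follicle held 53 of the 60 at 1 FPKM or more and listed 6 at 0. Of all 24616 genes it held 11504 at 1 FPKM or more. That share was not counted over the 13854 genes, so nothing is read from the 53. Follicle replicates 2 and 3, which were in the maximum of the rule, held 22 and 17 at 1 FPKM or more and listed 28 and 31 at 0.

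Against the mean of head and body, it lay within 1 in 23 of the 60 genes, beside 77.5% of all genes. It was at least 1 lower in 29 (beside 16.3%) and at least 1 higher in 8 (beside 6.18%). In 31 of 60 (51.7%) it was no more than 1 below that mean, beside 83.7% of all genes. The median difference was -0.76, beside -0.13 over all genes, and 14 genes were at least 4 lower, beside 0.354% of all. The rule chose the 60 genes for a high mean of head and body. A library left out of that mean tends to lie below it for such genes. The shares over all genes lack that choice, so nothing is read from the lower levels. The differences from head, from body and from their mean share libraries and are given side by side.

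Of the 25 genes higher in the head, it was below both segments in 13, between them in 11 and above both in 1, and 10 of the 14 genes at least 4 lower were among them. Their median level was 813 FPKM in the head, 57.3 in the body and 22.3 in the library labelled Follicle. It was nearer to the body than to the head in 21 of the 25, beside 77.7% of all genes higher in the head. Over the 41 members at least 1 apart it was nearer to the body in 28, beside 62.8% of all such genes.

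Of the 16 genes higher in the body, it was below both segments in 4, between them in 8 and above both in 4. Their median level was 10.1 FPKM in the head, 740.2 in the body and 93.1 in the library labelled Follicle. It was nearer to the body in 7 of the 16, beside 45.9% of all genes higher in the body. Over the 60 genes its levels had a Pearson correlation of 0.68 with the body and 0.27 with the head, a description over 60 genes.

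The 19 genes within 1 between the segments had close medians in the 3 libraries. Their median was 155.7 FPKM in the head, 150.4 in the body and 123 in the library labelled Follicle, and the median difference from the mean of both segments was -0.02. Gene by gene the differences ran from -4.08 to 3.002, so the close medians do not show close levels of each gene. The library labelled Follicle was within 1 of that mean in 11 of the 19, beside 77.5% of all genes, and listed none of them at 0. Among the 14 broad genes it was within 1 of the mean in 9, and among the 46 restricted genes in 14. Background shares for broad and restricted genes were not counted.

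The library labelled Follicle was then compared on the genes held mostly by 1 segment. The 11 restricted genes that were higher in the head by at least 4 summed to 40661 FPKM in the head, 1367 in the body and 2675 in this library, which listed 3 of them at 0. The 8 that were higher in the body by at least 4 summed to 17867 FPKM in the body, 20.4 in the head and 3125 in this library, which listed none at 0. The summed levels were thus 6.58% of the head and 17.5% of the body, but single genes carried them. ENSBTAG00000033377, which the body held at 1232 FPKM, gave 2396 of the 2675 FPKM, and ENSBTAG00000011164 gave 2561 of the 3125. Gene by gene, this library held a median of 0.369% of the head level of the 11 genes, under the 1.01% of the body library. It held a median of 6.87% of the body level of the 8 genes, and the head library 0.0485%. These genes were chosen by the difference between head and body, so the low level of the second segment follows from that choice. That level gives no scale for the library labelled Follicle.

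**Figure D5:**
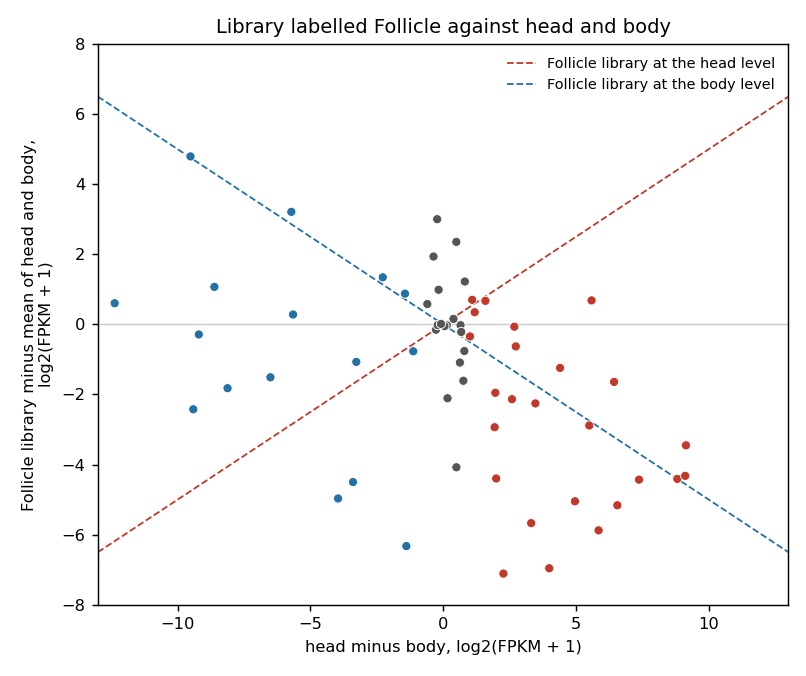
Difference of the library labelled Follicle from the mean of head and body (vertical) against the head minus body difference (horizontal), both on the log2(FPKM + 1) scale; each point is 1 of the 60 genes, red if higher in the head, blue if higher in the body and grey within 1. Points on the red dashed line have the head level and points on the blue dashed line the body level. Of the 25 red points, 21 are nearer to the body level, beside 77.7% of all genes higher in the head. Of the 16 blue points, 7 are, beside 45.9% of all genes higher in the body.

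The genes furthest above the segments in the library labelled Follicle were ENSBTAG00000011164, with a difference of 4.79 from the mean of both, and ENSBTAG00000039011, with 3.21. Both were near 0 in the head and close to the body level. ENSBTAG00000039011 was at 0.158 FPKM in the head, 59.9 in the body and 76.7 in this library, with a highest level of 1.42 elsewhere. The genes furthest below were ENSBTAG00000039490 (-7.11) and ENSBTAG00000032869 (-6.96). ENSBTAG00000039490 was at 1152 FPKM in the head, 238 in the body and 2.80 in this library, under the 3.77 of the library labelled prostrate. ENSBTAG00000032869 was at 1515 FPKM in the head, 94.2 in the body and 2.06 in this library, and its highest level elsewhere was 10.9 in the mammary gland fat. In the library labelled Follicle, genes at over 1000 FPKM in the head could thus lie under the highest of the other libraries. That was not the level of most other libraries for ENSBTAG00000039490, which 82 of them listed at 0 and 2 held at 1 FPKM or more. ENSBTAG00000032869 was at 1 FPKM or more in 59 of them.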

How the data were processed

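RNA sequencing of 94 bovine tissue libraries was analysed from 1 table of 24616 Ensembl gene identifiers. The deposited values are FPKM, per the file's name and the labels. HISAT2 and StringTie were run by the authors on UMD3.1, per the submitters' processing notes; their versions, the annotation and any filter are not stated there. FPKM totals ran from 585122 to 1062591 per library. Among 2000 low genes at most 7 shared 1 ratio between head and body (3 decimals), so whole reads were not recovered. Counting intervals are therefore not given, since the depth is unknown. A gene at an exact 0 is only said to be listed at 0.

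Levels were taken as log2(FPKM + 1), which understates folds of low genes. Genes at 1 FPKM or more in head or body (13854) gave the background shares. The members, lists and limits were chosen with earlier results of these data known. With 1 library per segment no test was run, and counts and medians are descriptions. The naming rule took the leading members in each direction, at most 2 per direction because the files do not pair identifiers with names. The gene family and marker lists drawn up by symbol could not be used for the same reason. The counting steps were tested on simulated data. Alternatives were a pseudocount of 0.1, equal totals, quantile normalization, a minimum of 10 FPKM, a difference of 2, other list lengths, other forms of the rule and each other library left out. Python 3.11.15, numpy 2.4.6, pandas 2.3.3, scipy 1.17.1 and matplotlib 3.10.9 were used.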

Additional observations from a re-analysis of the deposited data

How the results depend on the processing

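Of the 60 genes, 49 were chosen again with a pseudocount of 0.1, 57 with equal totals, 55 with quantile normalization, 42 from the head alone, 40 from the body alone and 43 from the lower of both. With the library labelled Follicle counted among the others, 31 were chosen again. A list of 30 genes holds 30 of them by construction. Leaving out each of the 91 other libraries in turn kept 48 to 60, with 60 in 77 of 91 runs; the lowest was without the bull testis. The shares of members higher in the head or body, the medians and the share held by the library labelled Follicle stayed within 1.5 times of their values under every alternative run on them. At a difference of at least 2, 2.88% of all genes were higher in the head and 2.16% in the body, and 30% and 21.7% of the members. No paired analysis was possible because head, body and the library labelled Follicle are 1 library each and the labels give no replicate numbers. Read depth is unknown, so genes listed at 0 may lie below detection.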

Other observations

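A list drawn from the library labelled Follicle alone shared most of the 60 genes. When its level, in place of the mean of head and body, was set against the same 91 libraries, 34 of its first 60 genes were members of the epididymis list, which is 56.7% of each list. Both lists use the same maximum over the 91 libraries, so the overlap is a description. Of the other 26 genes, 21 reached 1 FPKM in head or body, beside 13854 of all 24616 genes. In 19 the head or body was also above every one of the 91. That share was not counted over all genes. The 26 were chosen for low levels in the 91, so nothing is read from these counts. Of the 26, 2 are named here after their values were seen. ENSBTAG00000005628 was at 22802 FPKM in the library labelled Follicle, 86.8 in the head, 1762 in the body and at most 1133 elsewhere. ENSBTAG00000006508 was at 1059.5 FPKM in the library labelled Follicle, 1303 in the body, listed at 0 in the head and at most 13.3 elsewhere.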
